A study of Drosophila melanogaster with 2 samples.

Results

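The genes described here were 10 genes of early nerve cell formation in the fly: the proneural genes ac, l(1)sc and ase, the neuroblast transcription factor genes wor and dpn, the asymmetric division genes insc and mira, the cell fate genes brat and pros, and the neuronal precursor gene nerfin-1. They were chosen by symbol in the Ensembl gene models and were 10 of 13968 protein-coding genes. Binding of Zelda, the product of zld (also called vfl), was mapped by chromatin immunoprecipitation and sequencing in whole Drosophila melanogaster embryos of both sexes, collected over the first 0 to 24 hours of development. Both samples came from the same transgenic line, vfl-GFP, which stably expresses Zelda with GFP at its C terminus. The description of the samples names an antibody to GFP for the precipitation, whereas their antibody entry is vfl. There was 1 group of 2 biological replicates, numbered 2 and 3, with no untagged or other comparison group, so the question was where the tagged protein lay at these genes. Because all ages and tissues were mixed, binding in a few cells and weak binding in many cells cannot be told apart.

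Proneural genes encode basic helix-loop-helix activators that pair with Daughterless and give clusters of ectoderm cells the capacity to become neural. Notch signalling then restricts that capacity to single cells, which delaminate as neuroblasts. A neuroblast divides asymmetrically: Inscuteable sits at its apical side, and Miranda carries Brat and Prospero to the basal side and into the smaller daughter, where they stop self-renewal and start differentiation. Zelda is a pioneer factor best known for opening chromatin in the earliest embryo, and it is also known from larval neuroblasts. Its textbook site is CAGGTAG.

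The proneural promoters are shown first, because copies of CAGGTAG lie just before the starts of ac, l(1)sc and their neighbour sc, while ase has copies only farther away. Each line gives the Release 6 (dm6) forward strand from the NCBI assembly, 5′ to 3′, around a copy. Capitals mark CAGGTAG or its reverse complement CTACCTG, with the overlapping relative TAGGTAG joined to it at ac.
ac, 74 bp upstream of its start, chrX:369907-370007: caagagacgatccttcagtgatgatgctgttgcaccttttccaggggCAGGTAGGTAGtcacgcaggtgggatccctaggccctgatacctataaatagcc
l(1)sc, 120 bp upstream of its start, chrX:409551-409651: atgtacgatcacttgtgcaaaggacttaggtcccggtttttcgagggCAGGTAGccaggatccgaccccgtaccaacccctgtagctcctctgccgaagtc
sc, 3 copies from 154 to 116 bp upstream of its start, chrX:395885-395985: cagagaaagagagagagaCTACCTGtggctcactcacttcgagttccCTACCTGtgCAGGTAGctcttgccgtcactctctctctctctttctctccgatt
ase, 2598 bp upstream of its start, chrX:458099-458199: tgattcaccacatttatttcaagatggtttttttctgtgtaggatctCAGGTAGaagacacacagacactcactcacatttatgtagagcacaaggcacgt

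A second set shows summits of brat and nerfin-1 that had none of the Zelda words within 100 bp. The next lines, from the same assembly and strand, show 50 bp to each side of the strongest brat summit, of the brat summit at its first start and of the strongest nerfin-1 summit. Capitals mark GAGAG (as its reverse complement CTCTC), the word of GAGA factor, in the first, TATCGATA, the word of the factors DREF and BEAF-32, in the second, and the E box CAGCTG, a core that basic helix-loop-helix proteins can bind, in the last.
brat, 668 bp upstream of its last start, chr2L:19165149-19165249: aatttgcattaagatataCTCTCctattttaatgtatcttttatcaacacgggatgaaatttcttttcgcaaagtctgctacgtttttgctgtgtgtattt
brat, 65 bp upstream of its first start, chr2L:19133701-19133801: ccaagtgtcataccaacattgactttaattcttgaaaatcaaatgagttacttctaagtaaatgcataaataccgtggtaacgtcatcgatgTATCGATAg
nerfin-1, 440 bp upstream of its start, chr3L:908622-908722: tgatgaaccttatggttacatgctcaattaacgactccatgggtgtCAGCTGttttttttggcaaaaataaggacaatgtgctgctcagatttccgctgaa

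The deposited data were lists of peaks, each with a summit position and the authors' signal value, whose scale is not given, so signals were compared only within a list. A pooled list from both replicates held 30000 relaxed peaks, with signals down to 15.6, and each replicate had its own list of 30000. The authors' reproducibility threshold kept 2876 peaks, which were the 2876 strongest of the pooled list and had signals from 61.8 to 1231 with a median of 89.4. A rank is a place in a list ordered by signal, with 1 the strongest. The lists hold no read counts, so the read depth is unknown. Each gene was extended by 5 kb at both ends to find its summits.

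Tagged Zelda passed the threshold at 3 of the 10 genes, a share not far from that of all genes. A thresholded summit lay in the extended gene at 3 of 10, dpn, brat and pros, and 40.7% of all protein-coding genes had one. A thresholded summit within 1 kb of a start was found at 2 of 10, dpn and brat, against 19.7% of all genes. Their own start was the nearest to a thresholded summit at the same 2 genes, against 16.8% of all genes. The shares near starts are close to those of all genes. Below the threshold the coverage was broader: 10 of 10 extended genes held a relaxed pooled summit, against 84% of all genes, and 9 of 10 had one within 1 kb of a start, against 62.9%. The exception near starts was ase.

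Gene length bears on these counts, because a longer gene holds more places for a summit. Of the 7 genes shorter than 10 kb, 1 (dpn) had a thresholded summit in the extended gene, and 38.9% of all genes of that length had one. The gene of intermediate length, insc, had none, while 52% of genes of 10 to 30 kb had one and 27.3% had one within 1 kb of a start. Both genes of 30 kb or longer, brat and pros, had one, against 50.6% of genes of that length. The brat and pros territories together held 6 thresholded summits in 145 kb, or 4.14 per 100 kb, and the other 8 held 1 in 111 kb, or 0.898 per 100 kb. The genome held 2.15 per 100 kb. The 6 summits included 1 beside AsnRS and 1 beside Irbp, neighbours of brat and pros.

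**Figure D1:**
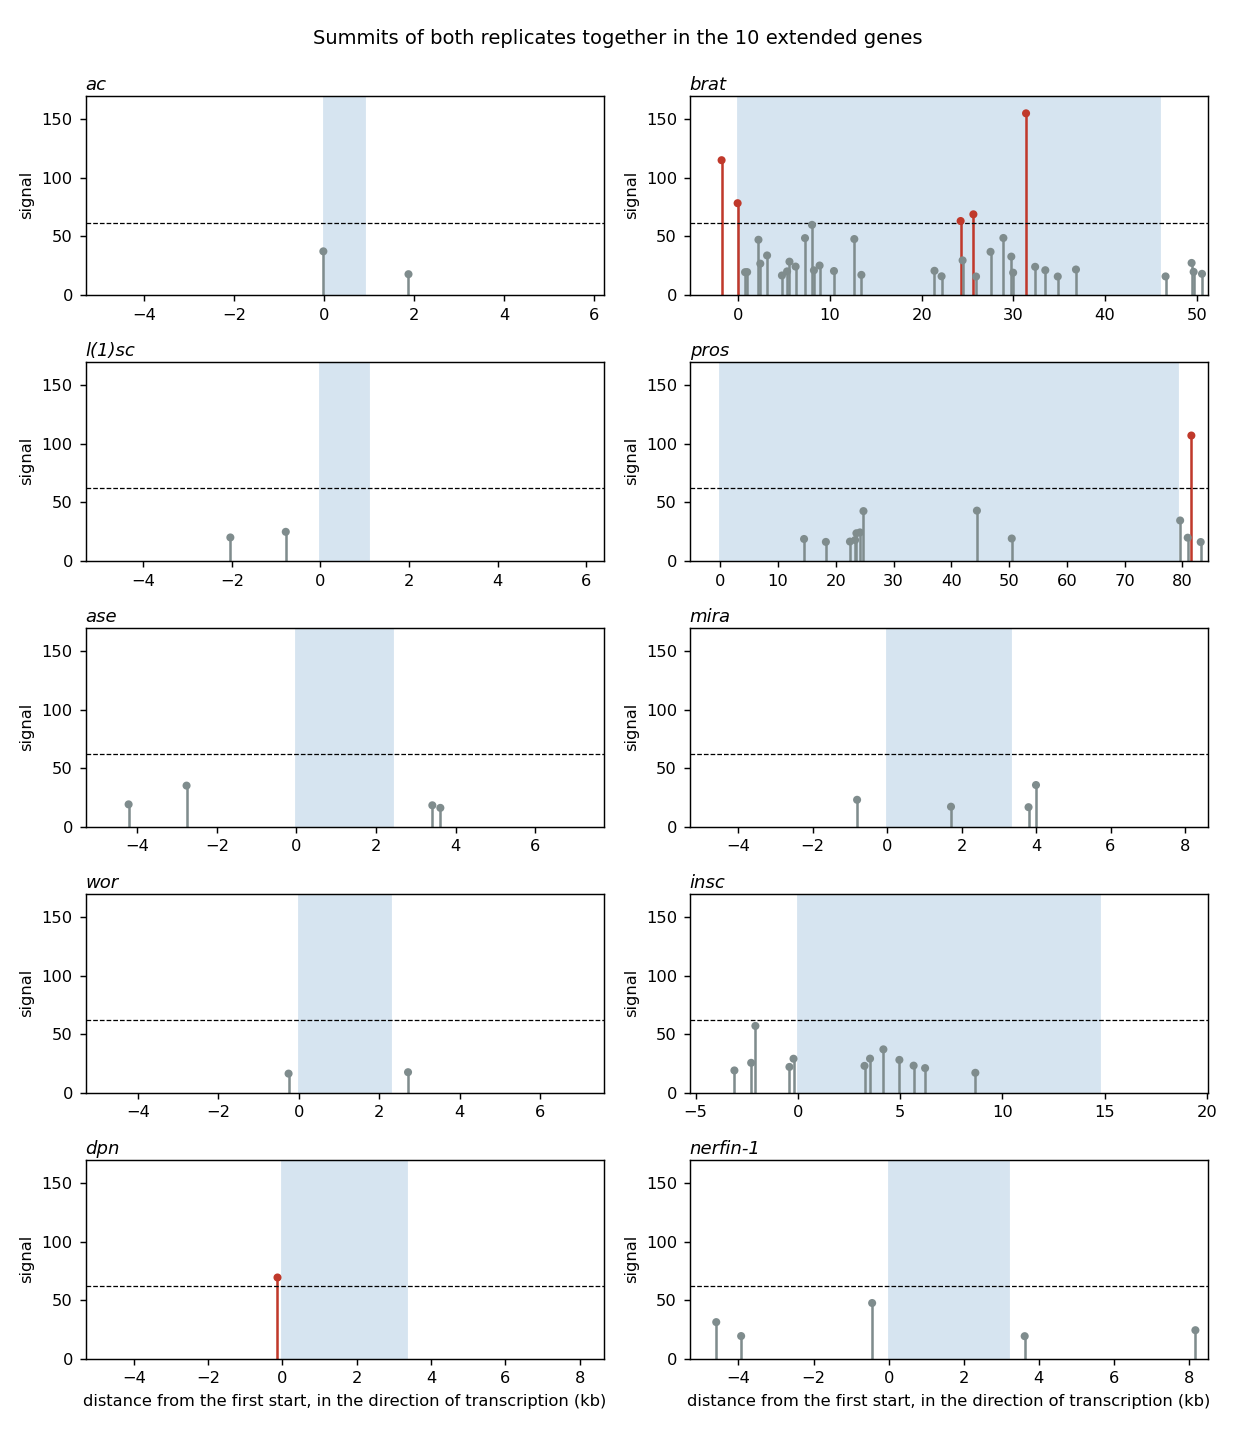
Pooled relaxed summits in the 10 extended genes, plotted by distance from the first start in the direction of transcription (kb) and by the authors' signal (no unit given). The shaded band is the gene, red stems are thresholded summits and the dashed line is the lowest thresholded signal, 61.8. Of the 7 red stems, 5 stand in the brat panel, 1 at the dpn start and 1 beyond the end of pros.

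Of the proneural genes, ac had a weak summit at its promoter. The summit lay at X position 370013, 18 bp upstream of the only ac start, with a pooled signal of 37.2 at rank 6684. In replicate 2 it had signal 17.8 and rank 10368 at nearly the same place, 4 bp away. In replicate 3 the strongest summit within 200 bp was 186 bp farther upstream, with signal 12.1 and rank 15558. Both replicates therefore had a relaxed peak there, and neither had it among its strongest 2876. The CAGGTAG copy printed for ac was 56 bp from the pooled summit, 60 bp from that of replicate 2 and 130 bp from that of replicate 3. A second ac summit, 1873 bp downstream of the start, had signal 17.7 and a match in replicate 2 only.

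At l(1)sc, the proneural gene most widely used in embryonic neuroblast formation, no pooled summit lay at the promoter copy of CAGGTAG. The nearest pooled summit, with signal 24.8 and rank 13782, was 783 bp upstream of the start and 663 bp from the copy. It had a match in replicate 3, with signal 15.6 and rank 9827, and none in replicate 2. Replicate 3 alone also had a peak 52 bp upstream of the start, 68 bp from the copy, with signal 13.9 and rank 12115. In replicate 2 the nearest summit was 1918 bp from the copy. The 2 replicates thus differed at the l(1)sc promoter.

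The neighbouring proneural gene sc, which is not among the 10, is set beside ac because both promoters hold CAGGTAG. Its pooled summit, 48 bp upstream of the start, had a signal of 37, close to the 37.2 of ac. It ranked 11506 with signal 16.9 in replicate 2 and 6378 with signal 19.5 in replicate 3. The ac summit was the higher of the pair in replicate 2 and the lower in replicate 3, so the replicates do not put them in 1 order.

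The fourth gene of the complex is ase, which encodes an Achaete-Scute protein made in nearly all neuroblasts after they form. It had no pooled summit within 1 kb of its start. Its strongest summit, 2761 bp upstream, had a pooled signal of 35.2 at rank 7369. The same peak had signal 17.2 and rank 11082 in replicate 2, and signal 17.9 and rank 7532 in replicate 3, with summits 12 bp and 0 bp from the pooled position. It was among the better matched weak peaks of the complex. The nearest copy of CAGGTAG, printed above, was 163 bp from it. A second copy, 960 bp upstream of the start, had a summit 29 bp away in replicate 3 only, with signal 9.28 and rank 24363.

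The Achaete-Scute complex was sparsely covered as a whole. From 5 kb before ac to 5 kb after ase, X positions 365031 to 468176, there was no thresholded summit in 103 kb. The pooled list had 14 summits, or 13.6 per 100 kb, against 22.4 in the genome. Replicate 2 had 15 (14.5 per 100 kb) and replicate 3 had 20 (19.4 per 100 kb), both below the 22.4 that each list had over the genome. These densities were set against the whole genome and not against the X chromosome alone. The 2 strongest of the 14 pooled summits were the promoter summits of ac and sc. The gene models place the whole stretch within CG32816, X positions 316576 to 470726 on the reverse strand, and summits between the proneural genes are therefore classed as intronic.

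**Figure D2:**
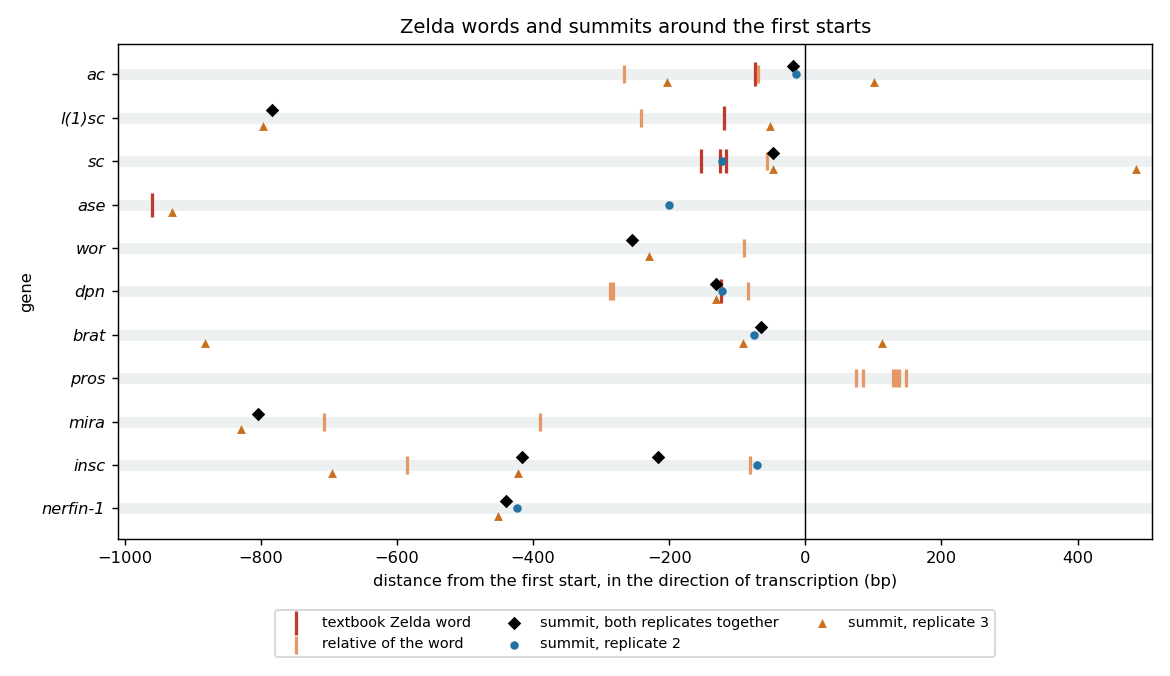
Copies of CAGGTAG (red bars), copies of 4 relatives (orange bars) and relaxed summits (black diamonds pooled, blue circles replicate 2, orange triangles replicate 3) from 1000 bp before to 500 bp after the first start of each gene and of sc. The textbook word and a summit of both replicates stand together before the starts of dpn and sc. At l(1)sc only replicate 3 has a summit beside the word.

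Over all starts, CAGGTAG was found from 250 bp before to 50 bp after a start in 3 of the 10 genes, ac, l(1)sc and dpn. It was found there in 321 of 13968 genes, or 2.3%. The words were searched on both strands. The relatives were CAGGTAA, then CAGGCAG, next TAGGTAG, and finally CAGGTAT. With these, 6 of 10 genes held a word, against 12.6% of all genes. Those were ac, l(1)sc, wor, dpn, brat and insc. Of those 321 genes, 23.1% had a thresholded summit within 1 kb of a start and 72.6% had a relaxed one. Of ac, l(1)sc and dpn, 1 had a thresholded summit there and 3 had a relaxed one. A match of letters describes the sequence and does not show a bound site.

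The neuroblast transcription factor genes differed from each other. Worniu, the product of wor, is a Snail family zinc finger protein of neuroblasts. Its gene, 2L positions 15423297 to 15425580 on the reverse strand, had the weakest promoter summit among the genes that had one. That summit, 255 bp upstream of the start, had a pooled signal of 16.4 at rank 27843, close to the lowest signal in the list. It was matched in replicate 3, with signal 11.4 and rank 17318, and not in replicate 2. The other wor summit, 2713 bp downstream of the start, had signal 17.6 and a match in replicate 2 only. No wor summit was found in both replicates.

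Deadpan, the product of dpn, is a repressor of the Hairy family that maintains neuroblast self-renewal. The gene, 2R positions 8228971 to 8232330 on the reverse strand, had a single pooled summit in 13.4 kb, and that summit was thresholded. It lay 132 bp upstream of the start, with signal 69.6 at rank 2279. Its signal was 37.8 at rank 2598 in replicate 2 and 28.2 at rank 3057 in replicate 3, where it fell outside the strongest 2876. A copy of CAGGTAG was 8 bp from the pooled summit and the replicate 3 summit and 2 bp from the replicate 2 summit. The window of 100 bp to each side also held CAGGTAA and GAGAG. Of the 7 thresholded summits in the 10 extended genes, the dpn summit was the only one with any of the 5 Zelda words, against 8.21% of all thresholded summits. CAGGTAG itself was near 2.02% of all thresholded summits.

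Of the asymmetric division genes, insc came closest to the threshold. It encodes the apical adaptor that links spindle orientation to the Par complex. The gene, 2R positions 20821262 to 20836028 on the reverse strand, shares its start with sktl, a phosphoinositide kinase gene, so a summit at that start cannot be assigned to 1 of the pair. Its extended territory held 12 pooled summits, 5 of them matched in both replicates, in part by replicate peaks shared between neighbouring summits. The strongest lay 2082 bp upstream of the start, within the gene of the long noncoding RNA lncRNA:CR44667, with signal 57.1 at rank 3292. That peak had signal 34.5 and rank 3069 in replicate 2, and signal 22.6 and rank 4759 in replicate 3. Closer to the start the replicates differed. A summit 422 bp upstream had signal 29.8 at rank 2727 in replicate 3 and no match in replicate 2. A summit 71 bp upstream had signal 19.6 at rank 8465 in replicate 2 and no counterpart within 200 bp in replicate 3. All pooled summits inside insc had as their nearest start a further start of sktl that lies within the gene. The strongest of them, with signal 37.1, lay 569 bp downstream of it.

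Miranda, the product of mira, is the basal adaptor that carries Brat and Prospero. The gene, 3R positions 19931799 to 19935120 on the reverse strand, had 4 pooled summits. Among them, 2 were matched in both replicates, and these shared the same peak of replicate 2. The strongest lay past the end of the gene, 3877 bp downstream of the nearer mira start and 2477 bp upstream of CG4459, with signal 35.7 at rank 7172. Replicate 3 ranked this peak 4332, with signal 23.6, and replicate 2 ranked it 28971, with signal 10.4, so most of its standing rested on replicate 3. The summit nearest to a start by position, 804 bp upstream, had signal 23.1 at rank 15681. It had signal 19 and rank 6699 in replicate 3 and no match in replicate 2.

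The cell fate gene brat had the densest binding of the 10. Brat is an NHL domain translational repressor that limits self-renewal in the daughter cell. The gene spans 45.9 kb, 2L positions 19133816 to 19179758 on the forward strand, with starts at 19133816, 19158540 and 19165867. Its extended territory held 37 pooled summits, 6.61 per 10 kb, and 5 of these were thresholded. At least as many thresholded summits were found in 66 genes, or 0.473% of all genes. That share covers genes of every length, 11983 of 13968 of them shorter than 10 kb, and was not taken among long genes alone. Among 670 genes of 30 kb or longer, 2.84% had at least the pooled density of brat. For many of the pooled summits the nearest start was not one of brat but that of Polr1D, which has a start inside brat. The replicate lists held 30 and 40 summits in the brat territory. Of the 37 pooled summits 21 were matched in both, in part by replicate peaks shared between neighbouring summits.

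The strongest of these was the first brat summit printed above, in an intron 668 bp upstream of the last start, with signal 155 at rank 448. It had signal 83.3 and rank 559 in replicate 2 and signal 71 and rank 372 in replicate 3, so both replicates placed it high. Of all protein-coding genes, 3.99% had a higher pooled signal within 1 kb of a start. The summit at the first start, 65 bp upstream, had signal 78.3 at rank 1838, with 36.2 at rank 2826 in replicate 2 and 40.1 at rank 1432 in replicate 3. TATCGATA was found within 100 bp of it and of 6.68% of all thresholded summits. It was the strongest peak within 500 bp of a start of the 10 genes themselves. The peaks directly above and below it in rank, both with signal 78.3, lay 2621 bp downstream of the start of RpS15Aa, a ribosomal protein gene, and 161 bp upstream of that of 14-3-3zeta, a signalling adaptor gene.

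A pair of thresholded summits flanked the second brat start. The summit 917 bp downstream had signal 68.8 at rank 2346, with 40.1 at rank 2361 in replicate 2 and 30.7 at rank 2575 in replicate 3. The summit 474 bp upstream had signal 63.1 at rank 2761, with 35.1 at rank 2964 in replicate 2 and 22.9 at rank 4616 in replicate 3. The upstream one was thus just inside the threshold, and neither replicate alone held it among its strongest 2876. The long noncoding RNA gene lncRNA:CR44977 runs against brat here, 2L positions 19157868 to 19159299. The upstream summit lay inside it, and the downstream one lay 158 bp before its start.

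The remaining thresholded summit of the brat territory belonged by position to AsnRS, which encodes an asparaginyl-tRNA synthetase. It lay 49 bp upstream of the AsnRS start and 1813 bp upstream of brat, with signal 115 at rank 868. In replicate 2 it had signal 75.6 at rank 721, and in replicate 3 it had 42.4 at rank 1259. Below the threshold, the brat introns held a series of peaks of middle strength. The highest, 8049 bp downstream of the first start, had signal 59.8 at rank 3055. Replicate 2 placed it at 4528 and replicate 3 at 2894. The next ones had signals of 48.6, 48.5, 47.7 and 47.1, all matched in both replicates. Near these lay CAGGTAA at the peak with 48.6 and CAGGTAT at the peak with 47.1. Polr1D had the nearest start to the peaks with 59.8, 48.5, 47.7 and 47.1. The peak with 47.1 lay 790 bp from that start.

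**Figure D3:**
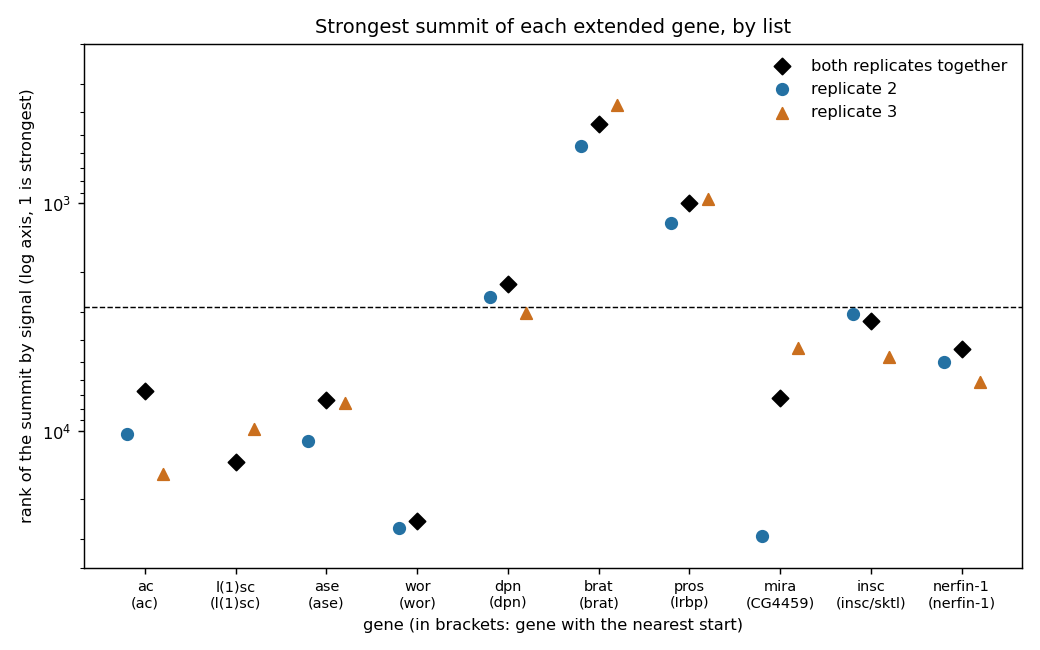
Rank by signal (log axis, 1 strongest) of the strongest pooled summit in each extended gene, with the rank of its match within 200 bp in each replicate list. The name in brackets is the gene with the nearest start and the dashed line is rank 2876. The brat summit, at pooled rank 448, is the strongest of those plotted. For l(1)sc there is no match in replicate 2, and for wor none in replicate 3.

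Prospero, the product of pros, is a homeodomain protein that represses stem cell genes in the ganglion mother cell. The gene is the longest of the 10, with 79.1 kb at 3R positions 11328480 to 11407627 on the forward strand, and held fewer summits than brat: 13 pooled, 1.46 per 10 kb, 4 of them matched in both replicates. Its only thresholded summit was not at a pros start. It lay beyond the end of the gene, 33 bp upstream of Irbp, the fly Ku70 gene of DNA repair, and 37226 bp from the nearest pros start. Its signal was 107 at rank 999, with 57.4 at rank 1224 in replicate 2 and 48 at rank 957 in replicate 3. A start of pros itself had a summit 115 bp downstream, with signal 42.9 at rank 5204. That peak had signal 19.8 and rank 8284 in replicate 2, and 18.6 and rank 6933 in replicate 3. A pros intron held a summit of nearly the same signal, 42.5, 137 bp upstream of the kinase genes KP78a and KP78b nested there. It ranked 11845 in replicate 2 and 3700 in replicate 3.

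Nerfin-1 is a zinc finger protein of neuronal precursors and young neurons, and it prevents their return to a neuroblast state. Its gene, 3L positions 909112 to 912319 on the forward strand, had 5 pooled summits. The strongest, printed above, lay 440 bp upstream of the start with signal 47.6 at rank 4389. It had signal 26 and rank 4970 in replicate 2, and 19.9 and rank 6107 in replicate 3, with summits 16 bp and 12 bp from the pooled position. It was reproducible in place and below the threshold in the pooled list. Of all protein-coding genes, 26.8% had a higher pooled signal within 1 kb of a start.

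Ordered by the best pooled signal within 1 kb of a start, the genes ran from brat (155) through dpn (69.6), nerfin-1 (47.6), pros (42.9), ac (37.2), insc (29.1), l(1)sc (24.8) and mira (23.1) to wor (16.4). Among brat, dpn, nerfin-1, pros and ac, both replicates kept this order. The summits of insc, l(1)sc, mira and wor each had a match in only 1 replicate, and 3 of these matches stood above ac there. In replicate 2 the insc match had signal 19.6, against 17.8 for ac. In replicate 3 the matches of mira and l(1)sc had 19 and 15.6, against 12.1 for ac, and mira also stood above the 18.6 of pros. The insc peak 422 bp upstream, with 29.8 in replicate 3, stood above the 28.2 of dpn. The places from dpn downward in the pooled order were therefore not the same in each replicate. The lowest thresholded signal, 61.8, lay between dpn and nerfin-1.

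Matches in both replicates were less common among the relaxed summits than among the thresholded ones. All 7 thresholded summits had a relaxed summit of both replicates within 200 bp, as did 99.1% of all thresholded summits. The threshold itself kept peaks for their reproducibility between these replicates, so matches there were largely set in advance. Of the 82 pooled summits in the extended genes, 38 were matched in both and 3 in neither. A replicate summit could be the match of several pooled summits, so these are counts of pooled summits. In the whole pooled list 44.9% were matched in both. By rank, 7 of the 82 were thresholded (8.54%, against 9.59% of the pooled list) and 32 ranked below 20000 (39%, against 33.3%).

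The placement of the summits followed the rest of the list closely at the strong end and less so at the weak end. Of the 7 thresholded summits, 5 (71.4%) lay within 500 bp of a start, against 64.5% of all, and the other 2, both in brat, were intronic. Of the 82 pooled summits, 22 (26.8%) lay within 500 bp of a start, against 30.9%. Introns held 41 (50%), against 36.5%. Coding exons held 7 (8.54%), against 10.6%, and intergenic sequence held 7 (8.54%), against 16.5%. Away from promoters, all pooled summits in the extended proneural genes lay outside those genes. They were classed as intronic because the gene models place the whole Achaete-Scute complex within a longer gene. The higher intron share and the lower intergenic share therefore rest in part on that gene model, and the shares were not recounted without it. The long genes brat and pros supplied 50 of the 82.

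Zelda words were commoner near the relaxed summits of these genes than in the list as a whole. Of the 82 pooled summits, 16 (19.5%) had any of the 5 words within 100 bp, against 8.59% of all pooled summits. CAGGTAG was near 5 (6.1%), against 1.98%. Those were the ac and dpn promoter summits, a weak summit in a brat coding exon with signal 15.7, and a pair of weak intronic pros summits with signals 19.1 and 18.7. Counted from the sequence, the 10 extended genes held 19 copies of CAGGTAG, 0.741 per 10 kb, against 0.57 in the genome. Of the 19 copies 5 (26.3%) had a pooled summit within 100 bp, against 8.57% of the 7635 copies in the genome. The extended genes also held more pooled summits, 32 per 100 kb against 22.4 in the genome, and these shares were not adjusted for that. The counts are small and no test was run on them.

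Other words were searched in the same windows on both strands. GAGAG, which can overlap itself, was found at 5 of the 7 thresholded summits (71.4%), against 23.6% of all. Those were the dpn summit, the Irbp summit and 3 in the brat territory, of which 1 was the AsnRS summit. The count is small, and 5 of the 7 summits came from the brat territory. At the 82 pooled summits it was found at 26 (31.7%), against 24%. The E boxes CAGCTG and CAGGTG were near 10 (12.2%) and 9 (11%), against 10.4% and 8.28%. GTGGGAA, the word of the Notch effector Suppressor of Hairless, was near 3 (3.66%), against 2.58%, and GGTCACAC, the word of M1BP, was near 1 (1.22%), against 1.93%. Neither CAGCTG nor CAGGTG lay within 100 bp of a thresholded summit of these genes, and other E box sequences were not searched.

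Other genes of the same pathways gave a wider view. Of 43 further neural genes in 4 lists, 14 (32.6%) had a thresholded summit in the extended gene and 13 (30.2%) had one within 1 kb of a start, against the 40.7% and 19.7% of all genes. At 11 of the 43 the gene's own start was the nearest to a thresholded summit in the extended gene. Of all genes, 16.8% had their own start nearest to a thresholded summit. Among 9 proneural and partner genes, 3 had one: chn, da and emc. The zinc finger gene chn, a regulator of ac and sc, had the strongest, with signal 198 at rank 267, 137 bp upstream of a start. The da summit, 111 bp upstream of the start of the gene for the partner Daughterless, had signal 92 at rank 1350. The proneural genes sc, ato, amos, cato and tap and the sense organ gene sens had none.

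Among 14 neuroblast identity and temporal genes, 1 (7.14%) had a thresholded summit. This was grh, the last factor of the temporal series, with signal 123 at rank 733, 2006 bp downstream of a start. Among 14 asymmetric division genes, 7 (50%) had one and 6 (42.9%) had one within 1 kb of a start. The highest signals were 138 at par-6, a Par complex gene, and 126 at numb, which encodes the Notch inhibitor inherited by 1 daughter. The par-6 summit lay 96 bp downstream of the start of CG8188, while the numb summit lay 121 bp upstream of a numb start. The strongest summits of pins and aurA were also nearest to starts of other genes. Among 6 genes that act with brat or in neuronal commitment, 3 (50%) had one. They were pum, nanos and elav, with elav highest at signal 273 and rank 128, 238 bp upstream of its start. The nanos territory reached signal 184 at rank 305, at a summit 66 bp upstream of the start shared by CG42359 and Nsun5.

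**Figure D4:**
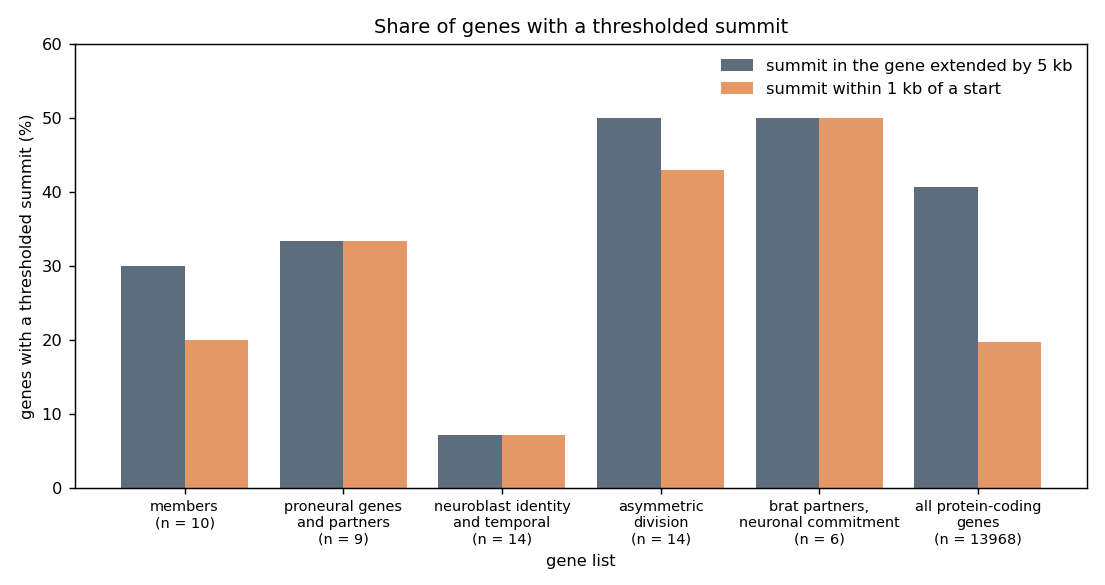
Share of genes (%) with a thresholded summit in the gene extended by 5 kb (grey bars) and within 1 kb of a start (orange bars), for the 10 genes, 4 lists of other neural genes and all 13968 protein-coding genes; n is the number of genes. The identity and temporal list is lowest at 7.14%, while the asymmetric division list and the list with brat partners reach 50% in the extended gene.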

How the data were processed

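Deposited narrowPeak lists on dm6 were used. Relaxed peaks were deposited for either replicate and for both pooled, and a thresholded list had been derived from these 3 by reproducibility, as the notes deposited beside them state. Each peak's signal is the authors' deposited value. The sources used here do not name the peak caller, the aligner, their versions or the scale of the signal. Depth is unknown, and the dm3 lists and control reads were not analysed here. Per the labels, chromatin was sonicated to sizes from 200 to 800. Whether the replicates shared a collection of embryos is not given, and with 1 group no test was run.

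Gene models came from Ensembl release 115 (BDGP6.54), with 13968 protein-coding genes and 19630 starts, and sequence from the NCBI Release 6 assembly, whose arms have the same lengths. Positions are counted from 1. Signals were ranked within each list. A pooled summit was matched to a replicate's summits within 200 bp, and where several lay there the strongest is given. The same replicate summit could match several pooled summits. The 5 Zelda words and 6 others were searched on both strands, 100 bp to each side of a summit. Promoters are within 500 bp of a start.

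The members and lists were chosen with earlier results of these data known. Named were all members, genes nearest to a thresholded summit in their territories, from each list the 2 genes with the highest thresholded signal, and the genes nearest to the peaks next in rank to the strongest peak within 500 bp of a member's own start. Genes beside relaxed summits, sc, and the other listed genes with or without a thresholded summit were named after their values were seen. In the lists, nos was matched as nanos through an older symbol. The code was checked on simulated data. As alternatives, the list was cut to its strongest 1438 peaks, either replicate was used alone, and windows, distances and assignments were varied. Python 3.11.15, numpy 2.4.6, pandas 2.3.3 and matplotlib 3.10.9 were used.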

Additional observations from a re-analysis of the deposited data

How the results depend on the processing

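Of 32 alternative values, 29 stayed within 1.5 times the reported count and 3 did not. With the strongest 1438 thresholded peaks in place of 2876, the genes with a thresholded summit within 1 kb of a start went from 2 to 1, since dpn was lost. Of all genes, 11.2% then had one. The summits in the 10 extended genes went from 7 to 3. Without replicate 2, that is with the strongest 2876 peaks of replicate 3, the summits with a Zelda word went from 1 of 7 to 0 of 6, because the dpn summit ranked below 2876 there. Leaving out either replicate gave 3 to 3 genes with a summit in the extended gene, against 40.3% to 40.5% of all genes. Within 1 kb of a start it gave 2 to 2 genes, against 19.3% to 19.4%. There were 6 to 6 summits, with a Zelda word at 0 to 1. Of the 43 other neural genes, 15 to 16 had a summit in the extended gene, against the same 40.3% to 40.5%. Among the 10, the genes with a summit in the extended gene changed: dpn, brat and pros in replicate 2 alone, and brat, pros and insc in replicate 3 alone. Counting only the strongest peaks of each replicate, 5 of the 7 thresholded summits were matched in both. No paired analysis was possible because there is 1 group. Read depth is unknown, so no limit could be set for genes without a summit, and absence from a list does not show absence of binding.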

Other observations

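At the first start of pros, 6 copies of Zelda relatives lay between 74 and 148 bp downstream of the start, and no relaxed summit of any list lay from 1000 bp before to 1000 bp after it. Of the 5 CAGGTAG copies in the extended pros territory, 2 had a pooled summit within 100 bp, both weak, with signals 19.1 and 18.7. One of these copies, 6094 bp downstream of a pros start, was 49 bp from the pooled summit and 127 bp from a replicate 3 summit with signal 19.5 at rank 6384, while the nearest replicate 2 summit was 6081 bp away.

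The mira territory held 2 copies of CAGGTAG, 4200 bp downstream and 3668 bp upstream of a start, and neither had a pooled summit within 100 bp. The single nerfin-1 copy, in a coding exon, was 1669 bp from the nearest pooled summit. The insc territory held no copy.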
